A study of Mus musculus with 2 samples.

Results

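The genes described here are 10 markers of the primitive endoderm, namely Gata4, Gata6, Sox17, Sox7, Foxa2, Dab2, Pdgfra, Afp, Ttr and Apoa1, out of 31896 gene names on the array. They were found as the non-control probes that carry these names, which gave 12 probes: 2 each for Sox17 and Foxa2 and 1 for every other gene. RNA came from mouse ZHBTc4 embryonic stem (ES) cells, in which the endogenous Oct4 alleles are disrupted and a doxycycline-repressed Oct4 transgene supplies what remains. Stable transfectants carried Nr5a2-EGFP (clone 26), Oct4-EGFP (clone 9) or EGFP alone (clone 2-5), each in the vector pCAG-IP, named for its CAG promoter, and are called Nr5a2-EGFP, Oct4-EGFP and EGFP cells below. All 3 were grown without feeders on gelatin in 15% serum with 1000 IU/ml leukemia inhibitory factor and were treated with doxycycline before harvest, for a time and at a dose that the labels do not give. The EGFP array held the Nr5a2-EGFP clone in Cy5 and the EGFP clone in Cy3, and the Oct4 array held the Nr5a2-EGFP clone in Cy5 and the Oct4-EGFP clone in Cy3.

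The primitive endoderm is the extraembryonic layer that the inner cell mass of the blastocyst forms beside the epiblast. FGF4 from epiblast precursors acts through FGF receptors and ERK on neighbouring cells, where GATA6 is followed by PDGFRA, SOX17, GATA4 and SOX7. The layer gives rise to parietal endoderm, which lays down a laminin and collagen IV membrane, and to visceral endoderm, which absorbs and secretes proteins and makes alpha-fetoprotein, transthyretin and apolipoproteins. Forced GATA4 or GATA6 turns ES cells into this lineage, while loss of Oct4 turns them into trophoblast.

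There was 1 array per pair of clones, without biological replicates or a dye swap, and each transgene was represented by 1 monoclonal clone. No test or p-value was therefore possible, and a transgene's effect, other properties of its clone and, in the direct ratios, a dye effect on a single gene cannot be told apart. A gene is written as at least 2-fold apart where its log2 ratio was 1 or more in either direction. The only repeated reading was that of Nr5a2-EGFP cells in Cy5 on both arrays, whose log2 difference had an SD of 0.30 over 25560 genes; the labels do not say whether both came from 1 extract. Because the RNA was bulk, fewer cells of a type and less RNA per cell cannot be told apart. All signals below are normalised spot signals on a linear scale, a probe is called well above background where the scanner software flagged most of its spots so, and levels of different probes are not compared.

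The probe stretches below are shown because the results turn on them: Dab2 differed most between clones, Apoa1 was read at many spots, and the probes of Foxa2 and Sox17 differed from their partners in detection. Each stretch has 30 bases of a 60-base probe, 5′ to 3′, from the array files, and positions are those of the whole probe on mm9. The files do not say which exon or untranslated region a probe lies in. Capitals mark the 5 bases that the Foxa2 probes share.
Dab2, the first bases of the probe at chr15:6390616-6390675, plus strand: cacacaactgttttgtatgtacttgtcttc
Apoa1, the first bases of the probe at chr9:46037921-46037980, plus strand: ttcaaccgttagtcagctgcaggaacggct
Foxa2, the last bases of the brighter probe at chr2:147868669-147868728, minus strand: gctttatttatggcttataaatgtgTGTTC
Foxa2, the first bases of the dimmer probe at chr2:147868614-147868673, minus strand: TGTTCtggctagaatggccagaattccaca
Sox17, the first bases of the brighter probe at chr1:4481038-4481097, minus strand: cccacttcccacaaaatttgcctttaattc
Sox17, the first bases of the dimmer probe at chr1:4481503-4481562, minus strand: ctcactgacttattccatttcttgaaagtg
The Foxa2 probes overlap by these 5 bases, while 405 bases separate the Sox17 probes.

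Most of the 10 genes were detectable in every clone, but Sox17 and Afp, Ttr and Apoa1, the last 3 genes of differentiated visceral endoderm, were at or near background. Of the 12 probes, 8 (66.7%) were well above background in Nr5a2-EGFP cells on the EGFP array and 7 (58.3%) on the Oct4 array, against 9 (75%) in Oct4-EGFP cells and 8 (66.7%) in EGFP cells. Over all 39429 probes these shares were 78.2%, 77.4%, 79.4% and 78.6%. In all 4 channels 6 genes had a probe well above background: Gata4, Gata6, Sox7, Foxa2, Dab2 and Pdgfra. Sox17, Ttr and Apoa1 were so in some channels only, and Afp in none. No member probe was saturated.

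**Figure D1:**
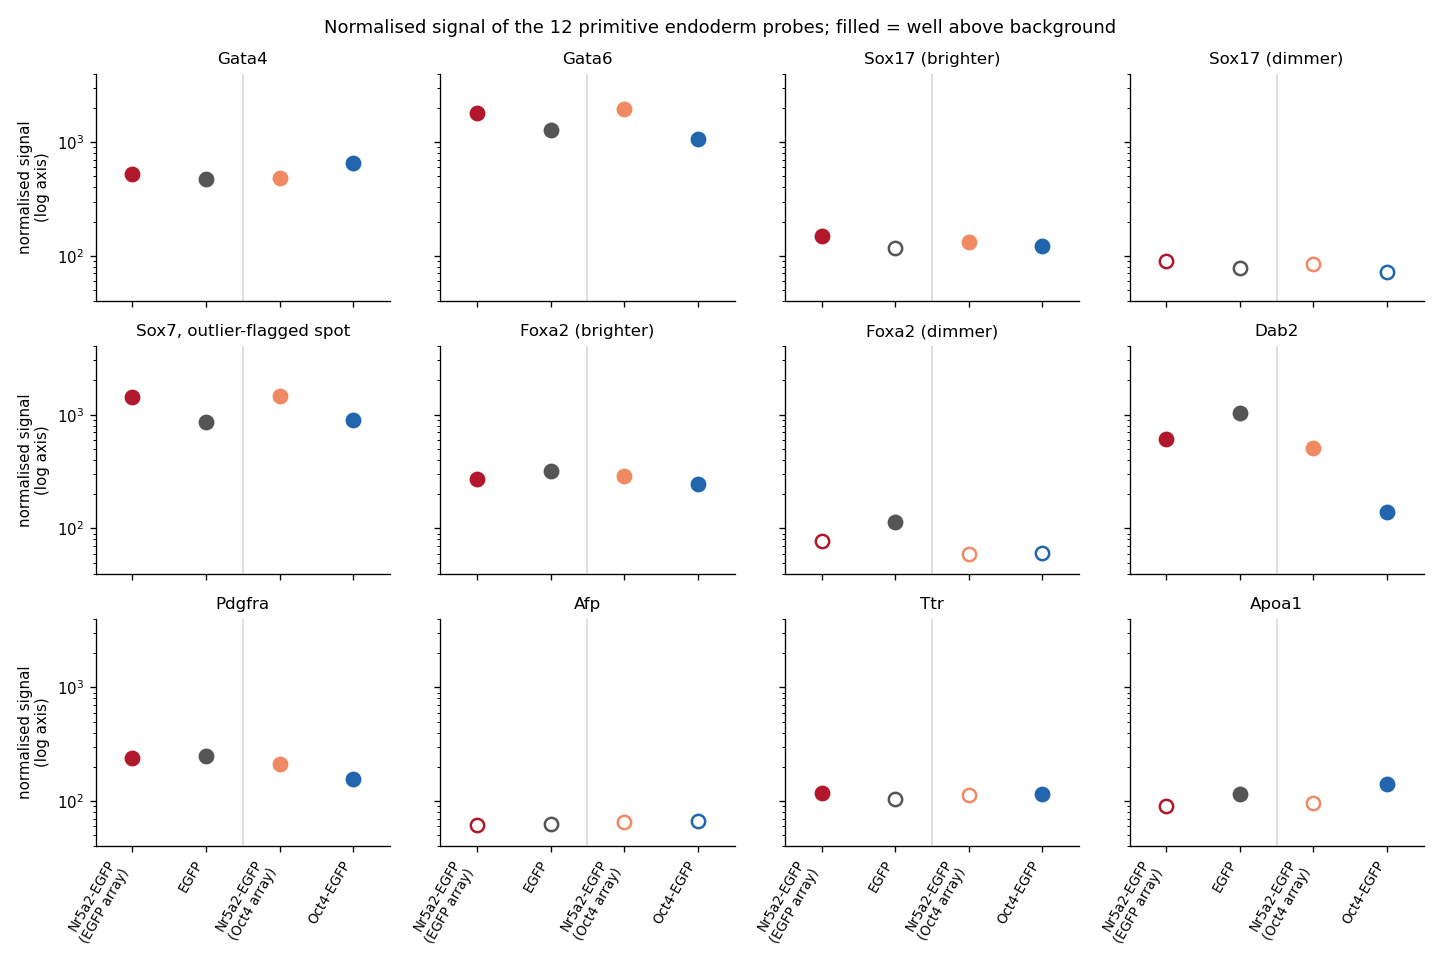
Normalised signal (log axis) of each of the 12 probes in the 4 channels, with Nr5a2-EGFP cells left of the cells they were hybridised with and a grey line between the arrays. Filled points are well above background and open points are not; Dab2 spans the widest range, with 139.9 in Oct4-EGFP cells and 1044 in EGFP cells, and Afp is open throughout.

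The GATA factors start the lineage and were read in all clones. Gata6 (NM_010258, chromosome 18, 11085039 to 11085097), the earliest of these factors in the embryo, had a signal of 1807 in Nr5a2-EGFP cells against 1284 in EGFP cells, and of 1946 in Nr5a2-EGFP cells against 1067 in Oct4-EGFP cells. Its log2 ratios were 0.49 over EGFP and 0.87 over Oct4-EGFP. Both Nr5a2-EGFP readings were thus the highest of the 4, and they differed from each other by -0.11 on the log2 scale (EGFP array minus Oct4 array). Gata4 (NM_008092, chromosome 14, 63817858 to 63817917), which acts after Gata6, had a signal of 526 in Nr5a2-EGFP cells against 476 in EGFP cells, and of 479.6 in Nr5a2-EGFP cells against 658 in Oct4-EGFP cells. Its log2 ratios were 0.14 and -0.46, so that Oct4-EGFP cells read highest for Gata4 and the other 2 clones were apart by less than the SD of the repeated readings. Neither GATA gene was 2-fold apart in any comparison.

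The SOX factors act downstream of GATA6. Sox7 (NM_011446, chromosome 14, 64569419 to 64569478) had 1 spot, which the software flagged as uneven in Cy5 on both arrays, so its values stand outside all counts. It read 1421 in Nr5a2-EGFP cells against 865 in EGFP cells, and 1468 in Nr5a2-EGFP cells against 901 in Oct4-EGFP cells, with log2 ratios of 0.72 and 0.70. The Cy3 levels of Sox7 in the Oct4-EGFP and EGFP clones were 0.06 apart on the log2 scale. At the brighter Sox17 probe (NM_011441) the signal was 147.9 in Nr5a2-EGFP cells against 116.9 in EGFP cells, the last not well above background. This is a formal bound of 1.27-fold higher in Nr5a2-EGFP cells, from 1 spot. With the Nr5a2-EGFP reading of the Oct4 array the log2 ratio over EGFP was 0.18, smaller than the SD of the repeated readings. On the Oct4 array the same probe had 132 in Nr5a2-EGFP cells against 121 in Oct4-EGFP cells, a log2 ratio of 0.13. The dimmer Sox17 probe was not well above background in any channel, at 89.2 in Nr5a2-EGFP cells against 77.9 in EGFP cells and 84.4 in Nr5a2-EGFP cells against 71.3 in Oct4-EGFP cells.

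The call on Sox17 depended on the processing. The software's processed signals of the brighter probe were 78.4 in Nr5a2-EGFP cells against 34.6 in EGFP cells, a log2 ratio of 1.18. It was 0.34 after the background correction with an offset of 50 used here. With that correction but no offset it was 0.60, still under 2-fold.

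Foxa2, a forkhead factor of visceral and definitive endoderm, was close to even at its brighter probe (NM_010446). The signal there was 269 in Nr5a2-EGFP cells against 322 in EGFP cells, and 289 in Nr5a2-EGFP cells against 246 in Oct4-EGFP cells, with log2 ratios of -0.26 and 0.23. The dimmer probe had 78.1 in Nr5a2-EGFP cells against 114.1 in EGFP cells, the only channel where it was well above background, and so was at least 1.09-fold lower in Nr5a2-EGFP cells. Its log2 ratio over EGFP was -0.55 here and -2.43 in the processed signals, where the software had put a surrogate value for a signal at background in Nr5a2-EGFP cells. On the Oct4 array it was not well above background in either clone, with 59.9 in Nr5a2-EGFP cells and 60.2 in Oct4-EGFP cells.

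Dab2 was the 1 of 8 measured members with a difference of at least 2-fold, where 11.7% of all genes were as far apart over Oct4-EGFP and 12.2% in the comparison of Oct4-EGFP with EGFP cells. Dab2 (NM_023118, chromosome 15) encodes an endocytic adaptor that binds the receptor megalin and is needed in visceral endoderm. Its signal was 609 in Nr5a2-EGFP cells against 1044 in EGFP cells, and 509 in Nr5a2-EGFP cells against 139.9 in Oct4-EGFP cells. Oct4-EGFP cells had the lowest signal, EGFP cells the highest, and both Nr5a2-EGFP readings lay between them. Dab2 was 3.64-fold higher in Nr5a2-EGFP cells than in Oct4-EGFP cells (log2 ratio 1.86), and 1.71-fold lower in Nr5a2-EGFP cells than in EGFP cells (log2 ratio -0.78). With the Nr5a2-EGFP reading of the other array these log2 ratios were 2.12 and -1.04, the last past the 2-fold line, and in the processed signals they were 2.82 and -0.80. In Oct4-EGFP cells Dab2 was 6.23-fold below EGFP cells in the indirect comparison, where the log2 ratio of the Oct4 array is subtracted from that of the EGFP array (-2.64), and 7.46-fold below them in the Cy3 levels alone (-2.90).

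Trophoblast markers differed in the direction of Dab2 on the Oct4 array. A list of 15 such genes had 13 measured there, of which 10 were higher in Nr5a2-EGFP cells than in Oct4-EGFP cells by 2-fold or more and 0 were lower, with Cdx2 at 4.48, Gata3 at 3.48 and a median of 1.78. The summed signal of that list was 137258 in Nr5a2-EGFP cells against 36640.3 in Oct4-EGFP cells, and 145406 in Nr5a2-EGFP cells against 133507 in EGFP cells. Over EGFP, 1 of 12 was at least 2-fold higher (Gata3) and 1 lower (Hand1). Elf5 and Tpbpa, genes of the stem and spongiotrophoblast compartments, were the 2 listed genes not well above background in any channel. On the EGFP array Cdx2 read 14747 in Nr5a2-EGFP cells against 18695 in EGFP cells, and Ascl2 19460 against 26304. The absence of a compartment therefore cannot be read from Elf5 and Tpbpa. The summed signal of 14 pluripotency genes was 161494 in Nr5a2-EGFP cells against 304726 in Oct4-EGFP cells. Saturated probes weighed heavily in these sums, Nanog and Tbx3 in Nr5a2-EGFP cells, Nanog and Fgf4 in Oct4-EGFP cells. Of the 14 genes, 0 were higher in Nr5a2-EGFP cells than in Oct4-EGFP cells by 2-fold or more and 7 lower. Other probes of Tdgf1 (-1.83 and -1.97) and Gdf3 (-2.93) were also lower, where the counted probes gave -0.30 and 0.04. Those of Dppa4 (0.57 and -0.40) were under 2-fold. The part of these markers in the Dab2 result was not tested.

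The genes nearest to Dab2 in their pattern were Acsl5, Myl10 and Krt19. Nearness was the Euclidean distance of the mean-centred log2 levels over the 4 channels, among 23827 genes well above background in all of them, and it was 0.17 for the long-chain acyl-CoA synthetase gene Acsl5, 0.21 for the myosin light chain gene Myl10 and 0.21 for the simple epithelial keratin gene Krt19. Krt19 had signals of 4882 in Nr5a2-EGFP cells against 8263 in EGFP cells, and of 4106 in Nr5a2-EGFP cells against 1319 in Oct4-EGFP cells. With 4 points per gene from 3 clones such a likeness is loose: 283 genes lay within a distance of 1. The range of Dab2 over the channels, 2.90 on the log2 scale, was wider than that of 99.0% of these genes, while the ranges of Gata6 (0.87), Pdgfra (0.66), Gata4 (0.47) and Foxa2 (0.39) were wider than those of 65.1%, 48.9%, 29.5% and 21.5%.

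**Figure D2:**
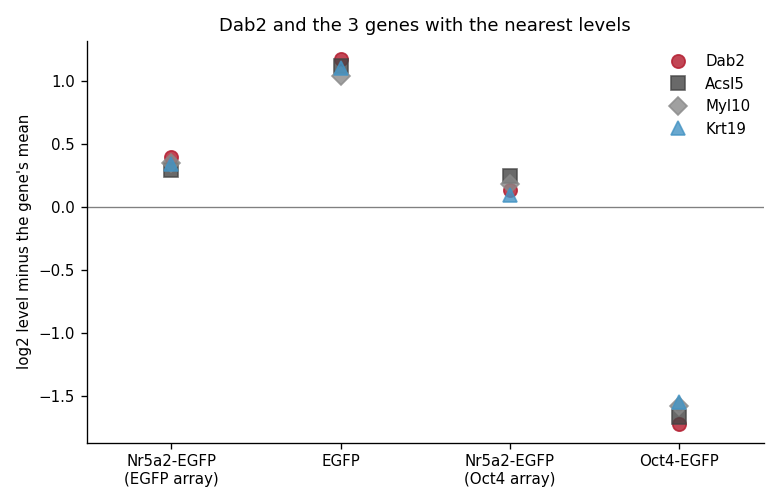
Log2 level minus the gene's own mean in each of the 4 channels for Dab2 and the 3 genes with the nearest levels. Every gene is lowest in Oct4-EGFP cells (Dab2 at -1.72), highest in EGFP cells (Dab2 at 1.18), and between them in both Nr5a2-EGFP readings.

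Pdgfra, which encodes the platelet-derived growth factor receptor alpha, an early surface marker of the lineage, was printed at 10 spots, as were Apoa1 and Afp. Spots share 1 labelled RNA, so their SD is technical. The Pdgfra signal was 237 in Nr5a2-EGFP cells against 249.6 in EGFP cells, and 213 in Nr5a2-EGFP cells against 158 in Oct4-EGFP cells. Its log2 ratio was -0.07 ± 0.10 over EGFP (SD, 10 spots) and 0.43 ± 0.08 over Oct4-EGFP (SD, 10 spots). All 10 spots lay above 0 on the Oct4 array, between 0.25 and 0.57, whereas on the EGFP array they ranged from -0.26 to 0.13. Pdgfra was thus lowest in Oct4-EGFP cells, at -0.66 against EGFP cells in the Cy3 levels, and under 2-fold apart throughout.

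Afp, Ttr and Apoa1, which encode secreted products of visceral endoderm, were at or near background. Afp (NM_007423, chromosome 5, 90937781 to 90937840) had mean processed signals over its spots of 10.0 in Nr5a2-EGFP cells against 9.43 in EGFP cells, and of 10.2 in Nr5a2-EGFP cells against 9.25 in Oct4-EGFP cells. The 153 negative control spots had medians of 9.39 and 9.62 in the Nr5a2-EGFP channels, 8.61 in the Oct4-EGFP channel and 8.77 in the EGFP channel. Afp was thus not detectable above background in any of the 3 clones.

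Apoa1 (NM_009692), which encodes the main protein of high-density lipoprotein, was well above background in Oct4-EGFP cells (10 of 10 spots) and EGFP cells (8 of 9), and at 0 spots in either reading of Nr5a2-EGFP cells. Its signal was 90.4 in Nr5a2-EGFP cells against 115.8 in EGFP cells, and 96.4 in Nr5a2-EGFP cells against 141 in Oct4-EGFP cells. The log2 ratio was -0.36 ± 0.07 over EGFP (SD, 9 spots) and -0.55 ± 0.09 over Oct4-EGFP (SD, 10 spots), and every one of these spots was below 0. Since the Nr5a2-EGFP side was not well above background, the gene was lower there by at least 1.11-fold against EGFP cells and by at least 1.37-fold against Oct4-EGFP cells. In the processed signals Apoa1 averaged 20.0 in Nr5a2-EGFP cells against 56.9 in EGFP cells and 30.1 in Nr5a2-EGFP cells against 78.7 in Oct4-EGFP cells. The log2 ratios there were -1.60 and -1.45, past the 2-fold line. With the correction used here but no offset they were -0.77 and -0.94, short of that line.

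Ttr (NM_013697, chromosome 18, 20828519 to 20828577), a carrier of thyroid hormone and of retinol-binding protein, stayed at the edge of detection. It had 118 in Nr5a2-EGFP cells against 104.4 in EGFP cells, and 113 in Nr5a2-EGFP cells against 115.7 in Oct4-EGFP cells. EGFP cells and the Nr5a2-EGFP reading of the Oct4 array were not well above background. Its log2 ratios were 0.18 over EGFP and -0.03 over Oct4-EGFP, formal bounds of 1.13-fold higher and 1.02-fold lower. Both were smaller than the SD of the repeated readings. With the Nr5a2-EGFP reading of the EGFP array the ratio over Oct4-EGFP was 0.03, so no direction of Ttr is established.

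**Figure D3:**
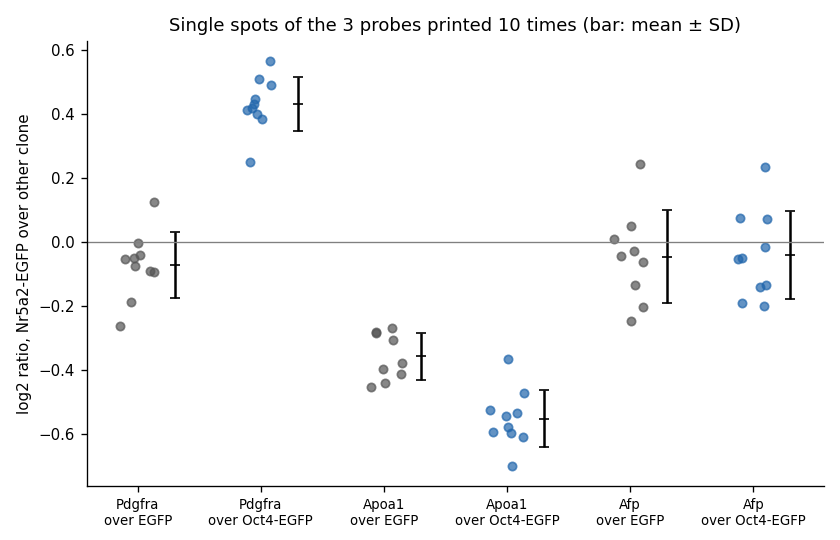
Log2 ratio of Nr5a2-EGFP cells over EGFP cells (grey) and over Oct4-EGFP cells (blue) at each spot of the probes printed 10 times, without outlier-flagged spots; bars give the mean ± SD. Apoa1 lies below 0 at all spots on both arrays, Pdgfra above 0 at all spots on the Oct4 array, and Afp on both sides of 0.

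The counts of members past each line were near those of all genes. Against EGFP cells, 8 of the 9 counted members were measured, Afp not being among them, and 0 were past 2-fold upward or downward, where 3.31% of 25952 genes were higher and 5.09% lower, 8.4% in either direction. Their median log2 ratio was 0.04, beside 0.03 for all genes, and 4 of the 8 were past the SD of the repeated readings, a distance that 55.3% of all genes passed. Gata6 and Sox17 were higher by that much, and Dab2 and Apoa1 lower. With the Nr5a2-EGFP reading of the Oct4 array Sox17 (0.18) and Apoa1 (-0.27) fell short of that distance. Against Oct4-EGFP cells, 1 of 8 was at least 2-fold higher (Dab2) and 0 lower, where 4.55% of 26053 genes were higher and 7.14% lower. The median was 0.18, beside 0.01 for all genes, and 5 of the 8 were past the SD, as were 56.9% of all genes. Gata6, Dab2 and Pdgfra were on the higher side, and Gata4 and Apoa1 on the lower. In the indirect comparison of Oct4-EGFP with EGFP cells, 0 of 8 were at least 2-fold higher and 1 lower (Dab2), where 6.39% of 26757 genes were higher and 5.78% lower, and the median was -0.09, beside 0.02. Beyond Dab2, its log2 ratios were 0.60 for Gata4, -0.37 for Gata6, -0.49 for Foxa2, -0.50 for Pdgfra and 0.20 for Apoa1. Sox17 and Ttr, not well above background in EGFP cells, had 0.21 each, formal bounds of 1.04-fold and 1.11-fold higher in Oct4-EGFP cells. Both ratios were smaller than the SD of the repeated readings. In the Cy3 levels alone Dab2 was again the 1 lower member, and 0 were higher, where 8.67% of all genes were higher and 7.79% lower. The direct comparisons share Nr5a2-EGFP cells, and the indirect one is made from both.

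**Figure D4:**
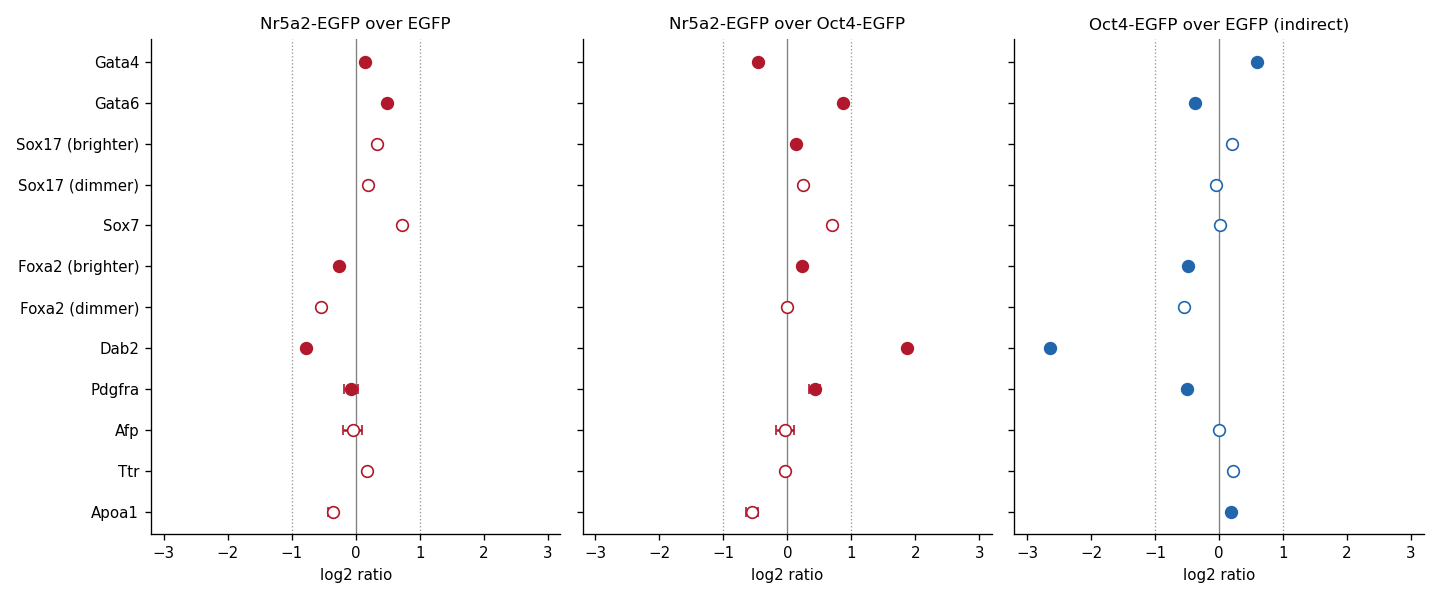
Log2 ratios of the 12 probes in the 3 comparisons, with dotted lines at 2-fold and bars of 1 SD for probes printed 10 times. Open points were not well above background in both channels or, for Sox7, carry an outlier flag; only Dab2 lies beyond a dotted line, at 1.86 over Oct4-EGFP and at -2.64 for Oct4-EGFP over EGFP.

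Other genes of the lineage were taken from lists set beside the members, and the genes named from them beyond the 2 of largest ratio were named after their values were seen. Visceral endoderm genes went both ways. Of 27 measured over EGFP, 1 was at least 2-fold higher in Nr5a2-EGFP cells, the fibrinogen gene Fgg (1.33), and 3 were lower, the retinol-binding protein gene Rbp4 (-1.29), the nuclear receptor gene Hnf4a (-1.11) and the microvillus gene Vil1 (-1.09). Of 25 measured over Oct4-EGFP, 4 were higher and 4 lower. Fgg had signals of 1069.9 in Nr5a2-EGFP cells against 425 in EGFP cells, and of 1066 in Nr5a2-EGFP cells against 130.8 in Oct4-EGFP cells, a log2 ratio of 3.03 over Oct4-EGFP. The claudin gene Cldn6 was saturated in Nr5a2-EGFP cells and at least 6.68-fold higher than in Oct4-EGFP cells, and Lrp2, which encodes the megalin that Dab2 binds, had a log2 ratio of 1.11, with the apolipoprotein gene Apoa4 at 1.01. The lower ones were Rbp4 (-2.04), the homeobox gene Hhex (-1.94), the transferrin gene Trf (-1.74, other probe -1.79) and Hnf4a (-1.04). The list medians were 0.02 and 0.04. With median centring 2 were higher and 1 lower over EGFP, and 4 higher and 3 lower over Oct4-EGFP. With no offset 2 were higher and 3 lower over EGFP, and 4 higher and 6 lower over Oct4-EGFP. Processed signals and the authors' deposited table gave 3 higher and 5 lower over EGFP, and 5 higher and 7 lower over Oct4-EGFP. In the indirect comparison 3 of 28 were higher in Oct4-EGFP cells, led by Trf (2.71), and 2 lower, led by Cldn6 (-1.97), with a median of -0.07. There 4 were lower with no offset, in processed signals and in the authors' deposited table.

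Genes of parietal endoderm and its membrane also went both ways. Of 15 measured over EGFP, the laminin gamma gene Lamc1 was at least 2-fold higher in Nr5a2-EGFP cells (1.72) and 0 were lower, with a median of -0.33 (-0.14 with median centring, which placed all genes at 0.16). With no offset 1 was higher and 2 were lower (Plat and Snai1), and 2 were higher (Lamc1 and Fst) and 2 lower in processed signals and in the authors' deposited table. The Nr5a2-EGFP readings of Plat were -3.68 apart, at 97.7 on the EGFP array and 1256 on the Oct4 array. EGFP cells read 150.6 for Plat, between them, so its direction over EGFP is not settled. Probes of a gene disagreed for the nidogen gene Nid1, whose counted probe gave 0.14 over EGFP and -0.29 over Oct4-EGFP and another 3.40 and 2.93, and for Sparc, at -0.62 and -1.31 over EGFP. Of 16 over Oct4-EGFP, 2 were higher, the parathyroid hormone receptor gene Pth1r (2.02) and the laminin beta gene Lamb1 (1.63), and 4 lower, led by the laminin alpha gene Lama1 (-1.81), with a median of 0.16. Lamb1 had signals of 986 in Nr5a2-EGFP cells against 319.6 in Oct4-EGFP cells. Lama1 had 8384 in Nr5a2-EGFP cells against 29429.8 in Oct4-EGFP cells, so subunits of laminin read in opposite directions. In the indirect comparison 3 of 16 were higher in Oct4-EGFP cells and 4 lower, among them Pth1r (-2.52), Lamb1 (-2.34), Col4a1 (-1.24) and Col4a2 (-1.12), with a median of -0.21. There 6 were lower in processed signals and in the authors' deposited table. Plat was among these 6, although its Cy3 levels alone put it 3.52 higher in Oct4-EGFP cells.

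Among FGF and ERK genes that induce the lineage, Fgf4 and Dusp6 read lower in Nr5a2-EGFP cells on both arrays. Fgf4 had no settled direction over EGFP, and some receptor probes read higher. Counted through the brightest probe, of 14 measured genes, 0 were higher and 2 lower over EGFP, Fgf4 (-2.20) and the ERK phosphatase gene Dusp6 (-1.18), and 0 were higher and 3 lower over Oct4-EGFP, Dusp6 (-2.68), Fgf4 and the ERK inhibitor gene Spry4, the last at least 2.91-fold lower. With median centring 2 were higher over EGFP (Fgfr3 and Spry2) and 1 lower, and 1 was higher over Oct4-EGFP (Sos1) and 3 lower with no offset, in processed signals and in the authors' deposited table. Fgfr1, a receptor, was counted through a probe that was saturated in every clone, and its other probes, which were not, had log2 ratios of 2.18 and 1.21 over EGFP and of 0.79 and 0.75 over Oct4-EGFP. For the receptor gene Fgfr3 the counted probe gave 0.77 and the other probe 1.21 over EGFP, and 0.17 and 0.56 over Oct4-EGFP. For Fgfr4 they gave 0.60 and 0.59 over EGFP, and 0.23 and -1.30 over Oct4-EGFP. For Etv4 they gave 0.29 and 0.04 over EGFP, and -0.94 and -2.32 over Oct4-EGFP. Fgf4, the ligand, was saturated in Oct4-EGFP cells and at least 5.77-fold lower in Nr5a2-EGFP cells. The readings of Nr5a2-EGFP cells themselves were -2.93 apart for it, at 1682 on the EGFP array and 12780 on the Oct4 array. EGFP cells read 7714 for Fgf4, between them. In the indirect comparison 3 of 14 were higher in Oct4-EGFP cells, Dusp6, Etv4 and Spry4, and 0 lower, against 2 higher and 1 lower (Sos1) with no offset, in processed signals and in the authors' deposited table. The Cy3 levels alone put Dusp6 at 2.20, Etv4 at 1.92 and Spry4 at 1.49, and Fgf4 at least 9.57-fold higher in Oct4-EGFP cells, where the indirect ratio of Fgf4, which carries the gap between the Nr5a2-EGFP readings, was 0.33. The list medians were -0.11, -0.23 and 0.15. Fgfr2, a receptor of FGF4, had log2 ratios of -0.31 and 0.00, and the adaptor gene Grb2 0.21 and 0.20.

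Definitive endoderm, the embryo's own gut layer, shares Sox17 and Foxa2 with the primitive endoderm. Of its 10 listed genes, Mixl1, Gsc, T and Foxa3 were not well above background in any channel. Of 5 measured over EGFP, 0 were at least 2-fold higher and 1 lower, the peptide YY gene Pyy (-1.37), and of 6 over Oct4-EGFP, 0 were higher and 0 lower, with Eomes at 0.52. Pyy was also lower in Oct4-EGFP cells than in EGFP cells (-1.21). Pluripotency genes, the markers of the labelled cell type, were well above background for 14 of 14 in the Oct4-EGFP and EGFP clones and for 14 and 13 in the readings of Nr5a2-EGFP cells. Over EGFP, 1 of 14 was at least 2-fold higher in Nr5a2-EGFP cells, Tbx3 (at least 2.80-fold), and 2 lower, Esrrb (-2.30) and Fgf4 (-2.20). The Nr5a2-EGFP readings were -1.45 apart for Esrrb, at 1638 and 4480 against 8070 in EGFP cells. For Fgf4 they were -2.93 apart, at 1682 and 12780 against 7714 in EGFP cells, so its direction is not settled. The counted Nanog probe was saturated, and its other probe was at least 3.24-fold higher in Nr5a2-EGFP than in EGFP cells. The summed signal of the 14 genes, in which saturated probes of Nanog and Tbx3 weigh heavily, was 146037 in Nr5a2-EGFP cells against 150004 in EGFP cells.

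**Figure D5:**
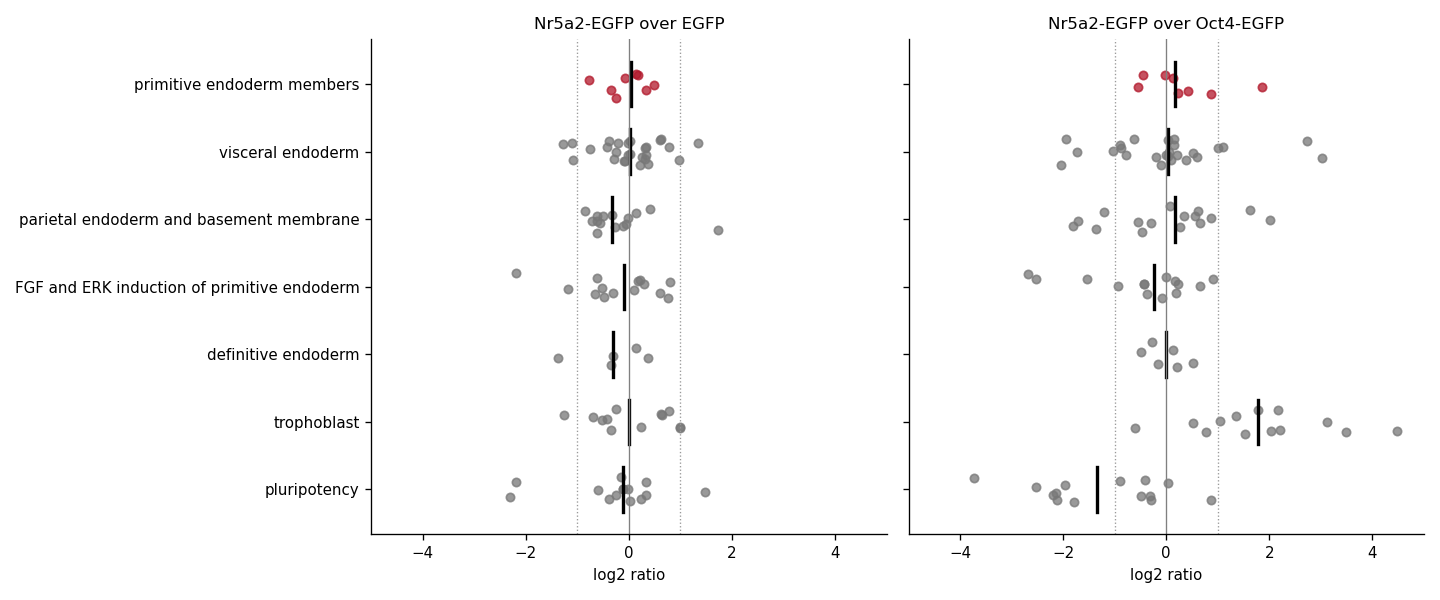
Log2 ratios of measured genes by list in the direct comparisons, with black bars at list medians and dotted lines at 2-fold. The primitive endoderm members (red) have medians of 0.04 and 0.18, while the trophoblast list stands at 1.78 and the pluripotency list at -1.35 over Oct4-EGFP.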

How the data were processed

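Per the file headers, Agilent Feature Extraction 10.7.3.1 made the deposited spot intensity files (the submitters' processing notes give 9.3.2.1), with probe positions on mm9 per the file headers. Processed intensity values were background-subtracted, detrended and dye-normalized, and the log10 ratio of Cy5 over Cy3 was computed, by that software per the file headers. The flags, other values of 0 or 1, are as deposited. Log2 ratios in the authors' deposited table are of unstated centring and followed the processed ratios at r = 0.997 and 0.996 (medians 0.03 and 0.05).

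Mean signals were corrected by normexp (offset 50), normalized by loess within each array and scaled by Aquantile in limma 3.58.1 (R 4.3.3). Control and outlier-flagged spots (530 and 523) had no weight and were left out, which removed Sox7 from all counts. Spots of a probe were averaged, and a gene was counted through its brightest probe (names updated by accession through a RefSeq table for 26055 of 39429 probes) where at least 1 channel concerned was well above background. Where a probe was not well above background or was saturated on one side, its ratio is only a bound, and list medians and counts use the ratio as computed. The steps were tested on simulated data. The members, lists and rules, including that for named genes (all members, the 2 largest ratios of each list and the 3 nearest genes), were chosen with earlier results of these data known. The number of arrays limits the precision.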

Additional observations from a re-analysis of the deposited data

How the results depend on the processing

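Across the alternatives, Dab2 was in each case the 1 member at least 2-fold higher in Nr5a2-EGFP cells than in Oct4-EGFP cells, and the 1 member at least 2-fold lower in Oct4-EGFP than in EGFP cells. Its log2 ratio over Oct4-EGFP was 2.33 with no offset, 2.82 from processed signals and 2.83 in the authors' deposited table. Over EGFP, 1 member was higher (Sox17) and 1 lower (Apoa1) both in processed signals and in the deposited table, in place of 0 and 0, and 1 was lower (Dab2) with the Nr5a2-EGFP level of the Oct4 array. Over Oct4-EGFP, 1 was lower (Apoa1) in processed signals and in the deposited table, in place of 0. Of all 26053 genes, 2607 and 2541 were lower in these settings, in place of 1861. Single member values moved by at least the SD of the repeated readings in 5 of 69, 8 of 70 and 9 of 70 cases in the comparisons over EGFP, over Oct4-EGFP and of Oct4-EGFP over EGFP, and no ratio of at least 2-fold changed sign. Keeping outlier-flagged spots, chosen after seeing the data, changed no count. Probes flagged as positive and significant numbered 10, 10, 9 and 10 in place of 8, 7, 9 and 8 (Nr5a2-EGFP on each array, Oct4-EGFP, EGFP). These were 83.3%, 83.3%, 75% and 83.3% of the member probes, below the 87.8%, 87.7%, 89.0% and 88.4% of all probes. Over all genes, processed signals gave 1771 higher and 2134 lower over EGFP in place of 860 and 1321, 1962 higher over Oct4-EGFP in place of 1186, and 2634 higher and 2518 lower for Oct4-EGFP over EGFP in place of 1710 and 1546. Median centring gave 1526 higher and 899 lower over EGFP, or 62.9% higher in place of 39.4%. The cause was not tested. No paired analysis was possible because each pair of clones has 1 array. Signals near background limit what Afp, Ttr, Sox17 and Apoa1 can show.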
